A study of Rattus norvegicus with 2 samples.

Results

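Of the 50 cell adhesion and Eph genes on the array, 30 were bright enough to pass the filter described below. Of these 7 (23.3%) read 2-fold or more higher in synaptosomes than in total hippocampus, against 19.1% of all filtered genes. Those with a reading beyond the noise of negative values on at least 1 array were L1cam, Nrcam, Nrxn3, Agrn and Cdh22. Cdh22 was higher with 1 of its 2 probe sets only. All but Nrxn3 passed that limit only through the synaptosome array, where they were high. In all genes held to it 24.4% were higher. An Itga7 probe set was at least 4.57-fold higher too, but the probe set that stood for the gene was lower. The dimmer Cdh8 and 1 probe set of Vcam1 were also over 2-fold higher, while Nrxn2, Itga1 and 1 of the Icam1 probe sets read over 2-fold lower. The 3 lower genes are 10% of the filtered members, against 14.3% of all filtered genes. Most of the other members differed little between the arrays or were too dim to compare. The members are all genes whose platform symbol begins with Cdh, Pcdh, Cntn, Nrxn, Nlgn, Itga, Itgb, Icam, Ncam, Efna, Efnb, Epha or Ephb, with L1cam, Nrcam, Nfasc, Thy1, Vcam1 and Agrn added. Probe sets annotated with more than 1 symbol were left out. The rule found 68 probe sets of 7006 with 1 symbol, and 50 genes of 4736. It used names and no measured value.

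The study asked which mRNAs are more abundant at the synapse. RNA from synaptosomes, nerve endings pinched off during homogenisation together with attached postsynaptic membrane, was measured on 1 array, and RNA from total hippocampus on another. Both samples came from Sprague Dawley rats at postnatal day 70, and neither carried a treatment or a genetic change in the labels. The number of animals behind each sample is not stated in the labels. With 1 array per group every value below is a single measurement, no test between the groups was possible, and the number of arrays limits the precision.

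Adhesion molecules span the synaptic cleft and fix nerve endings to their targets. Cadherins bind cadherins of the facing cell through calcium-dependent ectodomains, neurexins of the presynaptic side bind neuroligins of the postsynaptic side, and immunoglobulin-type molecules such as NCAM, L1 and the contactins guide axons and hold them in bundles or at nodes. Integrins bind the extracellular matrix, and Eph receptor tyrosine kinases signal on contact with membrane-bound ephrins. Several members are also known from cells other than neurons. ICAM-1 and VCAM-1 are best known from activated endothelium, and many integrins from blood cells, glia or vessel walls.

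The deposited values are linear intensities, written here as signals. Readings under 846, the median of all non-control values, were raised to that floor before the log2 step. The log2 ratio sets synaptosomes against total hippocampus, with positive values for higher in synaptosomes, and was centred on the median of the filtered probe sets, which was -0.17. Folds include this centring, so they are 1.13 times the quotient of the signals for genes that were higher and smaller by that factor for genes that were lower. A fold with 1 array at the floor is written "at least" and is a bound only if both readings are taken as they stand. A gene passed the filter if the mean of its 2 log2 levels reached 10.07, a signal of 1078, with the probe set of the highest mean level standing for the gene. The spread of the ratio between probe sets of the same gene was 0.90 (SD on the log2 scale, 658 genes), which is the only error these files allow and leaves out animals and preparations. A 2-fold difference, 1 on the log2 scale, is close to that SD. Negative readings give a second guide to noise. The 95th percentile of their size was 2912.6 for synaptosomes and 5280.25 for the hippocampus.

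Of the 50 members, 30 passed the filter, 7 lay above the floor on 1 array or both without passing it, and 13 had no reading above the floor. At the level of probe sets, 22 of 68 members (32.4%) were at the floor on both arrays, against 38.5% of all probe sets with 1 symbol. Of those 30, 7 read 2-fold or more higher in synaptosomes, where 19.1% of all 2735 filtered genes were, and 3 were at least 2-fold lower, where 14.3% of all were. These are 23.3% and 10% of the filtered members. The other 20 lay between. The median log2 ratio of the members was 0.04, against 0.00 for all filtered genes, and 15 members lay above 0 and 15 below. Without centring 7 members were higher and 5 lower by 2-fold or more, where 14.7% and 19.5% of all filtered genes were, and the share of higher genes among the members past 2-fold was 70% with centring and 58.3% without. For all genes past 2-fold the matching shares were 57.2% and 43.1%. In the 23 filtered members above the floor on both arrays, 6 (26.1%) were higher by 2-fold or more, where 14.2% of all such genes were, and 2 (8.70%) were lower by as much, where 10.5% were. When the centring also used only such genes, 3 were lower. The median of the members thus lay close to that of the array, and the families and their members differed among themselves. Genes that passed the filter only through the array where they were bright had to differ, so these counts describe the filtered genes and not all members.

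**Figure D1:**
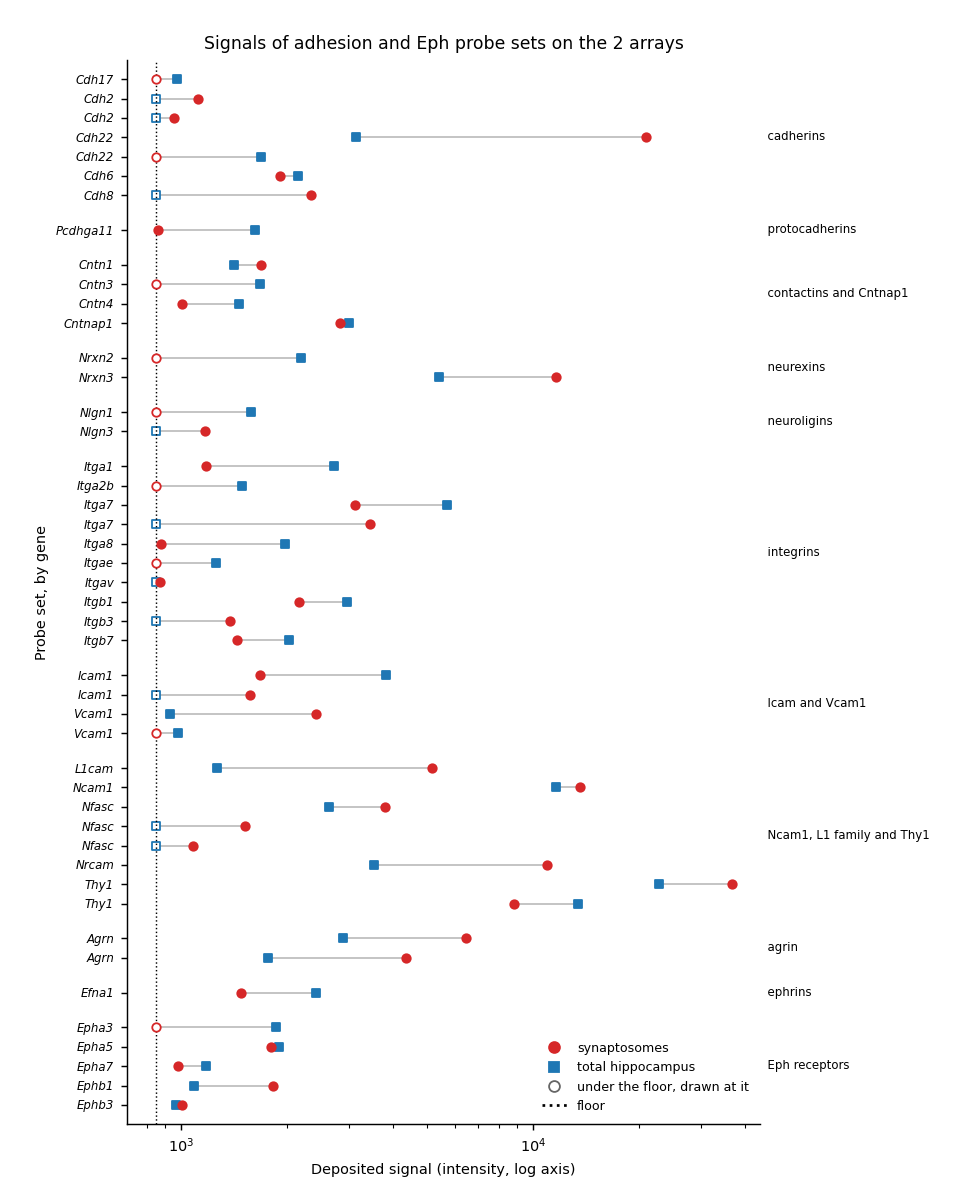
Deposited signals (log axis) of every adhesion or Eph probe set above the floor on at least 1 array, grouped by family, with synaptosomes as red circles and total hippocampus as blue squares; open symbols were under the floor of 846 (dotted line) and are drawn at it. Cdh22 (20983 against 3151), Nrcam (10994 against 3535) and L1cam (5168 against 1267) show the widest gaps among pairs with both symbols filled, and many other pairs lie close to the floor.

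Ncam1, Thy1 and the L1-family genes L1cam, Nrcam and Nfasc read higher in synaptosomes with the probe sets that stood for them. Chl1, an L1-family gene that the naming rule leaves out, read 605, under the floor, in synaptosomes and 1697 in the hippocampus, a bound of -0.83. The 5 genes of this group, Ncam1, L1cam, Nrcam, Nfasc and Thy1, all passed the filter and had a median log2 ratio of 0.85, with a range from 0.39 to 2.20. L1cam, the founding member of the L1 family and an axonal guidance molecule, read 5168 in synaptosomes and 1267 in the hippocampus, a log2 ratio of 2.20 or 4.59-fold. Nrcam, an L1-family molecule of axons and nodes of Ranvier, read 10994 and 3535, which is 1.81 or 3.50-fold. Both ratios were larger than the SD of 0.90 between probe sets, and L1cam and Nrcam held ranks 74 and 148 from the top of the 2735 filtered genes. Each rests on 1 probe set. In the hippocampus neither gene reached the limit set by negative readings, so the size of each fold is uncertain. With the floor raised to percentile 75 of all values, the ratio of L1cam was 0.97, just under 2-fold.

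Neurofascin, which anchors the axon initial segment and the node, was higher with each of its 3 probe sets. The probe set that stood for it read 3791 in synaptosomes and 2636 in the hippocampus, a log2 ratio of 0.69, within the SD. The others read 1517 and 1084 in synaptosomes and 391 and 70, under the floor, in the hippocampus, with bounds of 1.01 and 0.53. The 3 come from different source sequences, and all point the same way, though only 1 of them was above the floor on both arrays.

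Ncam1, the neural cell adhesion molecule, was nearly level. It read 13608 in synaptosomes and 11652 in the hippocampus, both far beyond the negative readings, with a log2 ratio of 0.39. Its second probe set gave no reading above the floor. Thy1, a lipid-anchored surface glycoprotein of neurons, had bright probe sets that went opposite ways. One read 36736 in synaptosomes and 22868 in the hippocampus, a log2 ratio of 0.85, and the other 8820 and 13468, a ratio of -0.44. No direction can be given for Thy1, since its sign turns with the probe set chosen.

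Agrin, the proteoglycan that clusters acetylcholine receptors at the neuromuscular junction and is also made by central neurons, was the gene whose probe sets lay closest together. Its Agrn probe sets read 6448 and 4372 in synaptosomes and 2893 and 1770 in the hippocampus. These are log2 ratios of 1.33 and 1.47, or 2.51-fold and 2.78-fold higher. The synaptosome readings were beyond the 95th percentile of negative sizes and the hippocampus readings were not. Both probe sets are designs on the same source sequence and are not independent measurements.

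The cadherins held the highest ratio among the members and also the widest disagreement. Of 7 genes, 3 passed the filter, and 2 of these were at least 2-fold higher, where 19.1% of all filtered genes were. These were Cdh22, whose probe sets disagreed, and Cdh8, which passed the filter only through the synaptosome array. The median log2 ratio of the filtered cadherins was 1.64, and it was 0.53 without a filter. Cdh22, a cadherin named for its expression in pituitary and brain, read 20983 in synaptosomes and 3151 in the hippocampus with 1 probe set, a log2 ratio of 2.91 or 7.49-fold. That places Cdh22 at rank 11 from the top of all filtered genes. The other probe set of Cdh22, from a different source sequence, read 104, under the floor, in synaptosomes and 1683 in the hippocampus, a bound of -0.82. The mean over both was 1.04, and the 2 probe sets differed by 3.73 on the log2 scale, far more than the SD between probe sets. The gene is therefore higher by 1 probe set only.

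Cdh8, a classical cadherin of synapses in the forebrain, read 2341 in synaptosomes. Its hippocampus reading of 721 was under the floor, so Cdh8 was at least 3.11-fold higher. The synaptosome reading is itself within the spread of negative values, and the other Cdh8 probe set was at the floor in both samples. Cdh6 read 1905 and 2144, with a log2 ratio of -0.0003. N-cadherin, or Cdh2, the main cadherin of excitatory synapses, was too dim to pass the filter. Its probe sets read 1119 and 956 in synaptosomes and -491 and 789, both under the floor, in the hippocampus, with bounds of 0.57 and 0.35. Cdh17 was dim as well, at 631 and 971 with its brighter probe set, and Cdh4 and Cdh16 were at the floor on both arrays. Cdh16 and Cdh17 are cadherins of kidney and gut.

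Only 2 protocadherins had a probe set with 1 symbol. Pcdhga11, a clustered protocadherin of the gamma group, read 861 in synaptosomes, just above the floor, and 1618 in the hippocampus, a log2 ratio of -0.74. Pcdhb12 was at the floor on both arrays. The ratio of Pcdhga11 was smaller than the SD between probe sets.

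**Figure D2:**
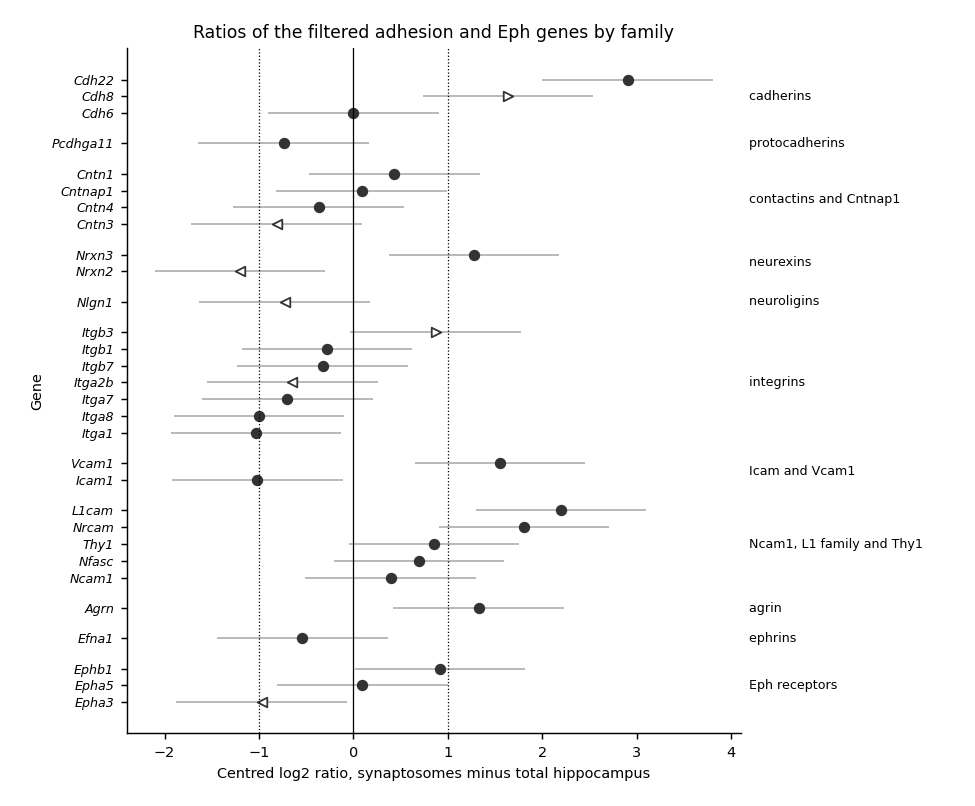
Centred log2 ratio (synaptosomes minus total hippocampus) of the 30 filtered adhesion and Eph genes by family; filled circles were above the floor on both arrays, open triangles are bounds with 1 array at the floor, bars are the SD of 0.90 between probe sets of one gene, and dotted lines mark 2-fold. The 5 genes of the Ncam1, L1 and Thy1 group lie above 0, and 6 of the 7 filtered integrins lie below 0.

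The neurexins on the array went opposite ways. Nrxn3, a presynaptic partner of neuroligins, read 11635 in synaptosomes and 5398 in the hippocampus, a log2 ratio of 1.28 or 2.43-fold higher, with both readings beyond the 95th percentile of negative sizes. Nrxn2 read 2189 in the hippocampus, and its synaptosome reading of 498 was under the floor, so it was at least 2.30-fold lower. The hippocampus reading of Nrxn2 lay within the spread of negative values on that array, and its second probe set was at the floor in both samples. Nrxn3 was the only member with readings beyond that limit on both arrays and a ratio over 2-fold. It rests on 1 probe set, and its hippocampus reading only just passed the limit.

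Their postsynaptic partners, the neuroligins, gave little signal. Nlgn1, the neuroligin of excitatory synapses, read 334, under the floor, in synaptosomes and 1576 in the hippocampus, a bound of -0.73. Nlgn3 read 1170 in synaptosomes and -1947 in the hippocampus and did not pass the filter. Nlgn2, the neuroligin of inhibitory synapses, was at the floor on both arrays. No neuroligin reading reached the 95th percentile of negative sizes, so that a difference in either direction was not detectable for them.

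The contactins, lipid-anchored immunoglobulin-type molecules of axons, had no member past 2-fold. Cntn1 read 1692 in synaptosomes and 1411 in the hippocampus, a log2 ratio of 0.43. Cntn4 read 1003 and 1458, a ratio of -0.37, and Cntn3 read 10, under the floor, and 1674, a bound of -0.81. The ratios of Cntn1 and Cntn4 lay within the SD between probe sets, and that of Cntn3 has only a bound. Cntn2, Cntn5 and Cntn6 were at the floor on both arrays. Cntnap1, or Caspr, which shares the prefix but is the partner of contactin at the paranodal junction with myelin, was level. It read 2829 in synaptosomes and 2993 in the hippocampus, with a log2 ratio of 0.09 that became -0.08 without centring and -0.02 with loess correction.

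The integrins were mostly dim and had no filtered gene past 2-fold on the higher side. Of 11 integrin genes, 7 passed the filter. None of these 7 was higher by 2-fold or more, 1 (14.3%, the same share as in all filtered genes) was lower by that much, and 6 fell inside the 2-fold lines. Their median log2 ratio was -0.65. No test of the difference between families was run, since genes are not replicates. Itga1, a collagen- and laminin-binding α subunit, read 1180 in synaptosomes and 2716 in the hippocampus, 2.05-fold lower. Itga8, an α subunit that binds RGD-containing matrix proteins, read 875 and 1968, a log2 ratio of -0.999 that falls just short of the 2-fold line. Both sit barely at that line, and neither reading of either gene reached the 95th percentile of negative sizes.

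Itgb1, the β1 subunit with which most matrix-binding α subunits pair, read 2164 in synaptosomes and 2955 in the hippocampus, a log2 ratio of -0.28 that became 0.0049 with the higher floor. Itgb3, a β subunit also found on platelets, was the filtered integrin above 0. It read 1374 in synaptosomes and 744 in the hippocampus, the latter below the floor, a bound of 0.87, just past the filter. Itgb7, a β subunit of lymphocytes, read 1442 and 2032, a ratio of -0.32. Itga2b, the platelet α subunit, read 539, under the floor, and 1490, a bound of -0.65. The ratios of Itgb1 and Itgb7 were smaller than the SD between probe sets, and those of Itgb3 and Itga2b have only bounds.

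Itga7, a laminin-binding α subunit best known from muscle, had no settled direction. A probe set with the higher mean level read 3130 in synaptosomes and 5715 in the hippocampus, a log2 ratio of -0.70. Another, on the same source sequence, read 3434 in synaptosomes and -1840 in the hippocampus, a bound of 2.19. The third was at the floor on both arrays. The synaptosome readings of the first 2 were close, and the hippocampus readings set the sign. Among the dim integrins, Itgav read 871 in synaptosomes and 56 in the hippocampus, and the brightest probe set of Itgae read 567 and 1257. Itgam, the integrin of microglia and macrophages, and Itgb4 were at the floor on both arrays.

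ICAM-1 and VCAM-1, the adhesion molecules by which leukocytes attach to vessels, each had probe sets that disagreed. Vcam1 read 2424 in synaptosomes and 931 in the hippocampus, a log2 ratio of 1.55 or 2.93-fold higher, with 1 probe set. The other read 612, under the floor, and 982, a bound of -0.04. Icam1 read 1680 in synaptosomes and 3824 in the hippocampus, 2.02-fold lower, with 1 probe set. The second Icam1 probe set, on the same source sequence, read 1567 and -336, at least 2.08-fold higher. The mean log2 ratio over both was 0.022. Icam2 was at the floor on both arrays. None of these readings reached the 95th percentile of negative sizes on its array.

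Ephrins and Eph receptors were dim throughout. Of 6 receptors, 3 passed the filter and 0 were past 2-fold, with a median log2 ratio of 0.09. Ephb1, a receptor of B-type ephrins found at excitatory synapses, read 1820 in synaptosomes and 1085 in the hippocampus, a ratio of 0.92. Epha5 read 1798 and 1897, a ratio of 0.09 that became -0.08 without centring. Epha3 read 676, under the floor, and 1866, a bound of -0.97 that reached -1.14 without centring.

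The other Eph receptors did not pass the filter. Epha7 read 980 in synaptosomes and 1177 in the hippocampus, and Ephb3 read 1008 and 965. Epha8 was at the floor on both arrays. Among the 3 ephrins, the membrane-bound ligands, Efna1 read 1482 in synaptosomes and 2425 in the hippocampus with 1 probe set, a ratio of -0.54, and was at the floor with the other. Efna5 and Efnb1 were at the floor on both arrays. No reading of an ephrin or Eph receptor reached the 95th percentile of negative sizes, so the receptors and their ligands gave no difference that stood clear of noise.

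**Figure D3:**
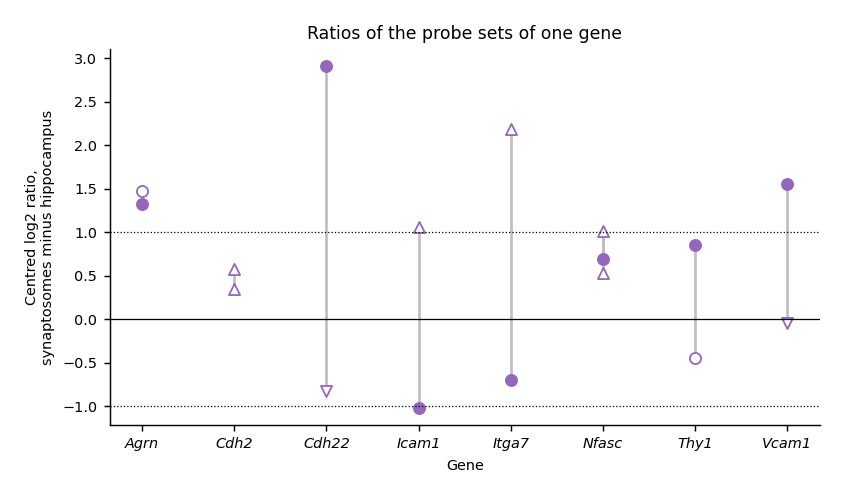
Centred log2 ratio of each probe set above the floor on at least 1 array, for the 8 adhesion genes with several such probe sets; filled symbols are the probe sets that stand for the gene (Cdh2 did not pass the filter), triangles are bounds pointing away from the array at the floor, and dotted lines mark 2-fold. Agrn, Cdh2 and Nfasc keep 1 sign, and the 5 others have probe sets on both sides of 0.

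Agreement between probe sets was poor in these genes. Of 15 members with several probe sets, 8 had 2 or more above the floor on at least 1 array. Agrn, Cdh2 and Nfasc had 1 sign, and Cdh22, Icam1, Itga7, Thy1 and Vcam1 had both signs. In the 6 members with 2 or more probe sets past the filter, ratios within a gene varied with an SD of 1.54, compared with 0.90 for the 658 genes of the whole array. Of the 5 genes with the clearest higher signals, L1cam, Nrcam and Cdh22 with its higher probe set had ratios larger than 1.54, and Agrn and Nrxn3 did not.

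The members with clear signal were few. In 9 genes a filtered probe set read beyond the 95th percentile of negative sizes on its own array, at least on 1 side, and of these 5 were at least 2-fold higher, 0 lower and 4 between. They were Cdh22, L1cam, Nrcam, Agrn and Nrxn3, followed by Thy1, Nfasc, Ncam1 and Itga7. In all genes held to the same rule 24.4% were higher by 2-fold or more and 9.16% lower. The limit is lower on the synaptosome array, which lets more higher genes through. With the hippocampus limit of 5280.25 on both arrays, 7 members were left, of which 4 were higher and 0 lower, against 19.6% and 13.0% of 991 genes. Both limits were chosen after the values were seen. L1cam, at 5168 and 1267, passed only the first limit, and Cdh22, Nrcam and Agrn passed both. Each of these passed only through the synaptosome array, where it was high, so the counts follow in part from the selection and support nothing. The 4 genes beyond the limit of its own array on both sides were Ncam1, Thy1, Itga7 and Nrxn3. Only Nrxn3 was past 2-fold, and the share of all genes under that rule was not computed, so the count has nothing to stand against.

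**Figure D4:**
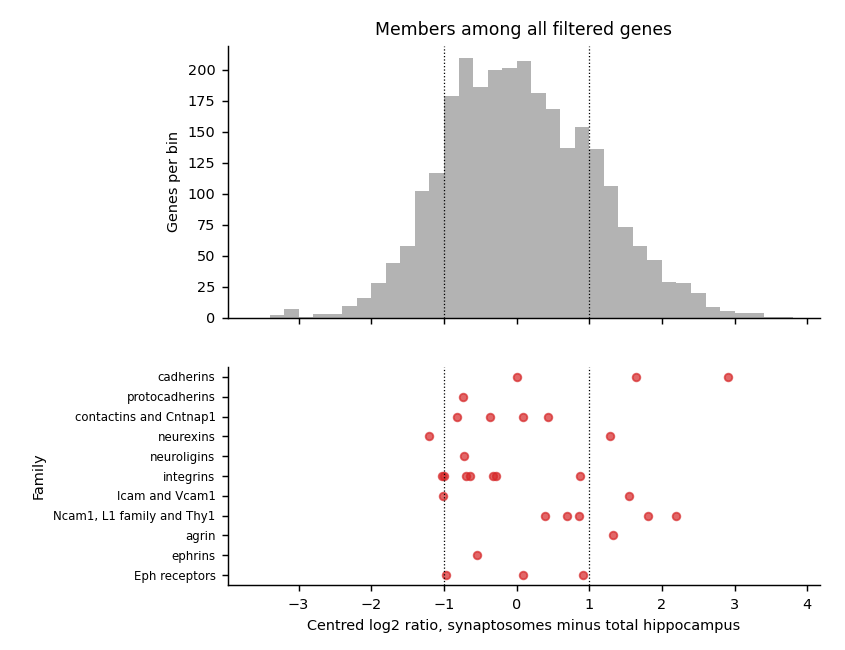
Top, histogram of the centred log2 ratio (synaptosomes minus total hippocampus) of all 2735 filtered genes in genes per bin; bottom, the 30 filtered members by family on the same axis, with dotted lines at 2-fold. The members spread over most of the histogram, from -1.20 for Nrxn2 to 2.91 for Cdh22.

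Genes that work with the members were described from lists fixed by name, whose counts stand against 19.1% higher and 14.3% lower among all filtered genes. Of the cytoplasmic partners of adhesion molecules, 13 of 30 on the array passed the filter. Of these 4 were higher by 2-fold or more and 0 lower, with a median of 0.50. Ptk2, the focal adhesion kinase that integrins activate, read 3658 in synaptosomes and -232 in the hippocampus, at least 4.87-fold higher. Src and Rock1, kinases of adhesion and actin signalling, were at least 2.65-fold higher each. They read 1995 and 1993 in synaptosomes, and the hippocampus array had both below the floor. All 3, and Pxn as the other gene counted as higher, are bounds from dim hippocampus readings. They passed the filter only through the synaptosome array, where they were high, so the count follows in part from the selection. The synaptosome readings of Src, Rock1 and Pxn lay within the spread of negative values on that array. No partner above the floor on both arrays reached 2-fold, and the largest ratio among these was 0.69, for Ank3.

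Matrix proteins and other extracellular ligands had 19 of 33 genes past the filter. Of these 2 were higher and 4 lower by 2-fold or more, with a median of -0.22. Slit3, a secreted guidance cue, read 4272 in synaptosomes and -2211 in the hippocampus, at least 5.68-fold higher. Tnc, or tenascin-C, read 3875 and 1361, 3.20-fold higher. Sparc, a matrix-binding protein of glia and endothelium, read 55221 and 191514, 3.08-fold lower and far beyond the noise on both arrays. Slit3 passed the filter only through the synaptosome array. The other lower genes, Vtn, Fn1 and Acan, passed it only through the hippocampus array.

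Other adhesion receptors of neurons and glia had 25 of 38 genes past the filter. Of these 9 were higher and 2 lower by 2-fold or more, with a median of 0.78. The largest ratios were those of Cd81, a tetraspanin, at 30867 and 10957 or 3.17-fold higher, Sirpa, at 10109 and 3663 or 3.11-fold, and Cd47, the ligand of the SIRPα protein that Sirpa encodes, at 3404 and 1274 or 3.01-fold. The hippocampus readings of Sirpa and Cd47 lay within the spread of negative values on that array, so the size of both folds is uncertain. Whether a receptor and its ligand go together was not tested. No list was tested against the rest of the array.

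The filtered markers of neurons and astrocytes were above the floor in both samples except Gja1 in synaptosomes, while several vessel and microglial markers were not. All 9 neuronal markers on the array passed the filter, with 1 at least 2-fold higher, 2 lower and a median of 0.33. Syn2 was 2.14-fold higher, and Snap25 and Gap43 were 2.96-fold and 2.19-fold lower. All 7 astrocyte markers passed it too, with 1 higher, 1 lower and a median of -0.17. S100b was 2.53-fold higher and Slc1a2 2.85-fold lower. Of 7 oligodendrocyte markers 1 was at least 2-fold higher and 3 were lower, with summed signals of 34293 in synaptosomes and 54000 in the hippocampus. Cnp was higher, at 8614 and 3627. Mbp at 1535 and 8123, Mobp at 3481 and 13910, and Mog at 2936 and 8232 were lower. Itga1 and the Icam1 probe set that stood for the gene read lower. Of 6 filtered markers of endothelium and vessel wall, 4 were at least 2-fold lower and 0 higher, against 14.3% lower among all filtered genes. The median of these vessel markers was -1.19. Their summed signals, with readings under the floor counted as 846, were 8257 in synaptosomes and 20495 in the hippocampus. Kdr, the VEGF receptor of endothelium, read -315 and 3891, Slco1a4 read 739 and 3555, and Flt1 read 2891 and 7504. Pecam1 lay the other way, at 1856 and 1604 with a log2 ratio of 0.38, as did Vcam1 among the members, 2.93-fold higher with 1 probe set, and the second Icam1 probe set, at least 2.08-fold higher. Vwf, Tagln and Abcb1a were at the floor on both arrays. Microglial and blood markers had 4 of 10 genes past the filter and 0 past 2-fold. Their summed signals, floored in the same way, were 15655 and 11359, and Csf1r and C1qc were at the floor on both arrays. Of the 4 filtered markers of fibroblasts and meninges 1 was at least 2-fold lower, with a median of -0.13. The part of vessel or glial RNA in the values of the members was not tested. With a fraction set against total tissue, less material of a cell type and less of a transcript in that material cannot be told apart.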

How the data were processed

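RNA of 1 synaptosome and 1 total hippocampus sample was measured, each on 1 array. Per the labels' protocols, column-purified RNA was amplified by SMART cDNA synthesis from an oligo(dT)-T7 primer and labelled with biotin during T7 transcription. The authors' deposited values are whole-number linear intensities for 8799 probe sets, 59 of them controls. The sources used here do not name the software, background correction or scaling. The mean after removal of 2% at each end was 2500 on both arrays, so no further scaling was applied, and 25.2% and 31.4% of values were at or below 0.

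The floor (percentile 50 of pooled non-control values), filter (percentile 50 of mean log2 level, 4370 probe sets), centring and 1 probe set per gene were computed from these values with Python 3.11.15, NumPy 2.4.6 and pandas 2.3.3, with statsmodels 0.14.6 for loess. The steps were tested on simulated data. Symbols came from the platform's annotation, and all 50 members matched the RefSeq gene table of rat assembly GRCr8 with 0 symbols changed. With 1 array per group no test was made. The members and lists were chosen with earlier results of these data known. Every member above the floor on an array is named with its signals, the others by name, and the 3 genes with the largest ratio from each partner list. Chl1 is named beside the L1 family, and a few other partner genes where they bear on a count. Of the neuron, astrocyte and oligodendrocyte markers, those past 2-fold are named. Of the marker lists otherwise, only those beside a result are named. There were 9 alternatives planned and 2 added after seeing the data.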

Additional observations from a re-analysis of the deposited data

How the results depend on the processing

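In the main setting 7 members were higher and 3 lower by 2-fold or more, and the median log2 ratio was 0.04. With the floor at percentile 75 these were 4, 0 and 0.64, from 12 members, where 10.1% of all genes were higher and 7.91% lower. With the filter at percentile 75 they were 4, 0 and 0.81, from 9 members, where 14.4% of all genes were higher and 11.5% lower. Both settings leave fewer genes. Without centring 5 were lower, with a median of -0.13, where 19.5% of all genes were lower and their median was -0.17. Without a filter 5 of 37 were lower, where 13.3% of all genes were. With a signal beyond the negative spread of its own array, 5 of 9 were higher, 0 were lower and the median was 1.28. For all genes under that rule the values were 24.4%, 9.16% and a median of 0.27. With the hippocampus limit on both arrays they were 4, 0 and 1.28 for 7 members. For all genes they were 19.6%, 13.0% and 0.04. Quantile normalization, loess, genes above the floor on both arrays, the mean over probe sets and no suffixed probe sets kept all 3 values close to the main ones. Of 237 values of single genes over 11 alternatives, 231 moved by less than the SD of 0.90 between probe sets, 5 moved by more, and 1 reversed. The reversed one was Icam1, at 0.022 with the mean over its probe sets. Most alternatives could not move a ratio by 0.90. Leaving out the centring only takes away the shift of -0.17, and the limits from negative readings left the ratios as they were. The mean over probe sets leaves a gene with 1 filtered probe set nearly unchanged. This count and the next therefore say little about how firm the values are. Of the 10 genes past 2-fold, 8 were past it the same way in every alternative that gave them a value. The exceptions were L1cam, at 0.97 with the higher floor, and Icam1. Cdh8, Vcam1 and Nrxn2 had a value in only 6 of the 11 alternatives. The opposing Vcam1 probe set did not pass the filter and so did not enter the mean over probe sets. Thy1 was at -0.44 and Itga7 at 2.19 without suffixed probe sets. The low readings limit all of this, since only 12 of the 68 member probe sets read beyond the negative spread of the synaptosome array and 5 beyond that of the hippocampus array. No paired analysis was possible because each group has 1 array.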

Other observations

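Of the probe sets left out for carrying several symbols, 2 belong to the adhesion families, and both are annotated with 13 gamma protocadherin genes, so they cannot be assigned to any of them. One read 8482 in synaptosomes and 20483 in the hippocampus, both beyond the 95th percentile of negative sizes, a centred log2 ratio of -1.10 or 2.15-fold lower. The other read 300 and -1290, under the floor on both arrays. The bright probe set lay on the same side as Pcdhga11, the gamma protocadherin with a probe set of its own. Both readings of Pcdhga11, 861 and 1618, lay within the spread of negative values. Its ratio of -0.74 was smaller than the SD of 0.90 between probe sets, so its side lends no support.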
